A study of Mus musculus with 4 samples.

Results

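Slc22a17, the receptor for lipocalin-2, and 9 genes that take up, store, release or sense iron were followed in splenic follicular (FOB) B cells with and without hnRNP F. Slc22a17 was picked because the deposited splicing table lists 5 events for it and because its counts were higher in the knockout cells, and the other genes were picked by role: Lcn2, Tfrc, Slc11a2, Slc40a1, Fth1, Ftl1, Ireb2, Aco1 and Ncoa4. All 10 genes, of 55401 in the count table, passed the filter on low counts. WT cells came from Hnrnpf fl/fl mice without Cre and knockout cells from Hnrnpf fl/fl mice with a Cre allele that is active in the B lineage (Hnrnpf bKO), so both groups carried floxed Hnrnpf alleles and only the knockout mice carried Cre. All mice were C57BL/6 and 7 weeks old by their labels, and FOB cells were sorted from spleen as B220+CD93-CD23highCD21low. Poly(A) RNA of 2 WT and 2 Hnrnpf bKO samples was sequenced in a single experiment, and whether a sample pooled mice is not given in the sources used here. The p-values therefore measure the spread between these samples, which may be technical.

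Cells take up most of their iron as transferrin bound to the transferrin receptor (Tfrc), move it out of endosomes through DMT1 (Slc11a2), store it in ferritin shells built of heavy (Fth1) and light (Ftl1) chains, and release it through ferroportin (Slc40a1). The cytosolic proteins IRP1 (Aco1) and IRP2 (Ireb2), bind hairpins called iron-responsive elements when iron is low. Binding at the 5′ end of an mRNA blocks its translation, and binding behind the coding sequence protects the mRNA from decay. NCOA4 carries ferritin to the lysosome for breakdown. Lipocalin-2 (Lcn2) is a neutrophil granule protein that captures bacterial siderophores and can deliver iron through the receptor encoded by Slc22a17. hnRNP F is a splicing regulator that binds runs of guanines in pre-mRNA.

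Slc22a17 lies at chr14:54906304-54913132 on the minus strand of GRCm38, and no other gene of GENCODE M21 overlaps it. The annotation gives it 12 transcripts, of which 4 are protein coding, 4 carry the nonsense-mediated decay label and 4 the retained intron label. Among them are 3 cassette exons, meaning exons that some transcripts hold and others join over. All 3 lie inside the coding sequence of a protein-coding transcript, and the length of none is a multiple of 3. The sequences are shown because exon skipping makes up most of the events listed for this gene and because hnRNP F binds runs of G, which are in capitals wherever 3 or more G stand together. They were read 5′ to 3′ on the strand of the gene from the GENCODE M21 transcripts.
Slc22a17 exon of 104 bases, chr14:54912049-54912152: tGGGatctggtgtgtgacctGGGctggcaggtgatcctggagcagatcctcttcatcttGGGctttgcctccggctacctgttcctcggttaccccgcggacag
Slc22a17 exon of 166 bases, chr14:54908823-54908988: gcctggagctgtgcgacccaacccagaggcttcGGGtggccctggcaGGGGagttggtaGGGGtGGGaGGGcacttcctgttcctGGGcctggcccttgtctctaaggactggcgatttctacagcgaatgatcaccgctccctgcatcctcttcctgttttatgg
Slc22a17 exon of 106 bases, chr14:54908261-54908366: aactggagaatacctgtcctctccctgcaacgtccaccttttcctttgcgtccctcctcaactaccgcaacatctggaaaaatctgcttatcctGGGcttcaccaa
Slc22a17 intron, the 60 bases after the exon of 106 bases, chr14:54908201-54908260: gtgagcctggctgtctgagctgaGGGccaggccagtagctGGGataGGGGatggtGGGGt

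The exon of 104 bases held 3 G runs, the exon of 166 bases held 6 and the exon of 106 bases held 1. Of 79084 annotated internal coding exons of 100 to 170 bases, 72.8% held at least 1 such run and 5.98% held at least 4 on the transcribed strand. The 60 intron bases after the exon of 106 bases held 4 runs, a number reached in 10.7% of 9192 windows of the same length that directly follow an exon and that a retained intron transcript covers. The intron windows on both sides of the exon of 166 bases held none, and the window before the exon of 106 bases held 1. A run of G is a description of the letters and not a binding site. An alternative 3′ splice site inside the exon of 166 bases leaves out its first 125 bases, which hold all 6 of its G runs. The other annotated alternative 3′ splice site shifts an acceptor by 3 bases.

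The deposited splicing table listed 4 skipped exon events and 1 alternative 3′ splice site event for Slc22a17. It names the gene and the type of each event without a position, so no event could be tied to one of the exons printed above. The whole table listed 1556 events in 1173 genes, of which 1017 were skipped exons and 121 were alternative 3′ splice sites. Of the 14123 genes left by the filter, 8.22% had at least 1 listed event. A single event was listed for 912 genes, 5 events for 11 genes including Slc22a17, and 4 events for 14 genes. Events and higher counts in the knockout both chose Slc22a17, so nothing is read from its place among these genes. None of the other 9 iron genes had a listed event.

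Among the protein-coding transcripts, those with and without the exon of 104 bases differ in the length of what they encode. The pair that holds this exon has coding sequences of 1878 and 1881 bases. The pair that joins over it has coding sequences of 1203 and 720 bases. The short form of the exon of 166 bases is found only in transcripts labelled for nonsense-mediated decay. The gene counts sum all of these forms, so levels of single transcripts were not measured here.

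**Figure D1:**
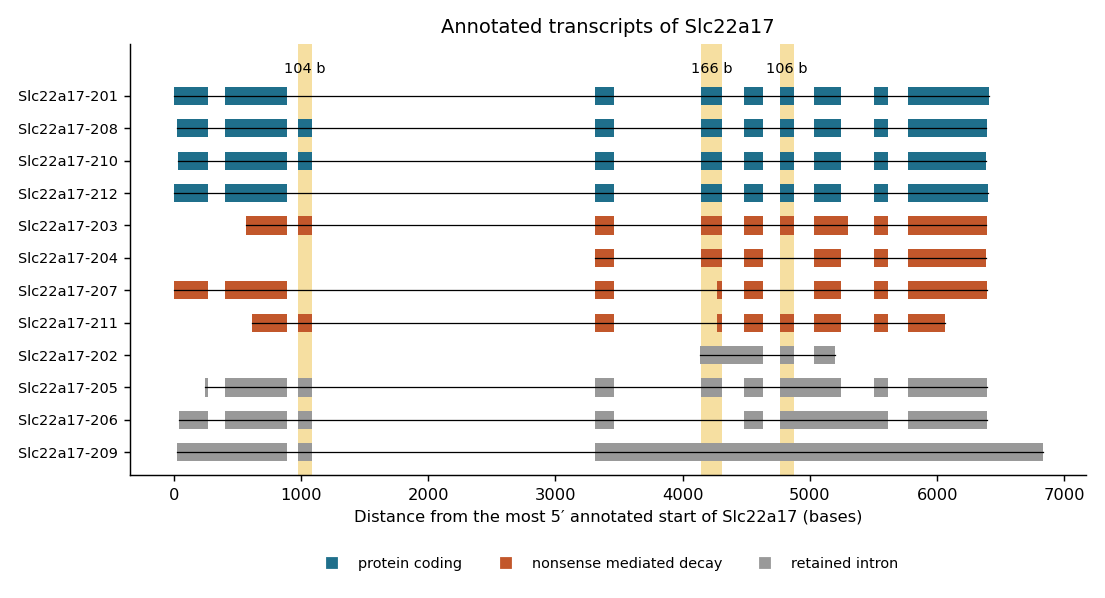
Annotated transcripts of Slc22a17 in GENCODE M21, drawn to scale with the distance in bases from the most 5′ annotated start on the horizontal axis, boxes for exons and lines for introns. Yellow bands mark the 3 cassette exons of 104, 166 and 106 bases, and the exon of 104 bases is present in the protein-coding pair with the longer coding sequences of 1878 and 1881 bases.

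Iron-responsive elements are shown because the IRPs bind them. The search asked for a C, 5 bases, the loop CAGTGN and 5 bases that pair with the first 5, with G-T pairs allowed, on the transcribed strand of the GENCODE M21 transcripts. A match in an untranslated region was found for 160 of 21901 protein-coding genes, which is 0.731%. It was found for 4 of the 10 iron genes. Apart from Slc22a17 these genes were picked by their role in iron handling, so the number is a description and no test of enrichment. Fth1, Ftl1 and Slc40a1 each had 1 match before the coding sequence, and Tfrc had 4 matches behind it. The letters of the loop are in capitals.
Fth1 element, chr19:9982738-9982754, plus strand: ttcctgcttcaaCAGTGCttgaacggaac
Ftl1 element, chr7:45459785-45459801, minus strand: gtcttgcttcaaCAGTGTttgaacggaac
Slc40a1 element, chr1:45925471-45925487, minus strand: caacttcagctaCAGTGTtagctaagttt
Tfrc element, chr16:32631225-32631241, plus strand: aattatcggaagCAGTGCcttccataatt
Tfrc element, chr16:32631716-32631732, plus strand: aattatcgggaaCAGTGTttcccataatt

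Each printed run is 29 bases long and holds the element at its centre, and the coordinates are those of the element itself. The remaining 6 iron genes, including Slc22a17, had no match to these letters. Slc11a2 is known to carry an element behind the coding sequence in some of its transcripts, and a stem that departs from the searched pairing is missed by this search.

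The libraries held 15698567 to 18908963 counts. Hnrnpf, the targeted gene, had 5780 and 6634 counts in WT against 1167 and 1194 in Hnrnpf bKO, and its level in Hnrnpf bKO was 0.201 of WT (log2 fold change -2.32 ± 0.06, SE; edgeR quasi-likelihood test with Benjamini-Hochberg adjustment, adjusted p = 1.05e-10). The 10 follicular B cell markers summed to between 20002 and 20737 CPM, which are counts scaled to the library total, in every library. The summed level was 29.9 to 47.1 CPM for 7 T cell genes and 24.3 to 30.8 CPM for 13 red pulp macrophage genes. For 11 erythroid genes it was 17 and 11.3 CPM in WT against 10.1 and 7.86 CPM in Hnrnpf bKO, with 1 gene at 0 in all libraries. Among them 1, Car2, was lower by the edgeR test (log2 fold change -0.91 ± 0.22, SE; adjusted p = 0.0268). Car2 alone held 11.9 and 7.62 CPM of the WT sums and 5.03 and 5.20 CPM of the Hnrnpf bKO sums. The summed level of 13 neutrophil genes was 16.2 and 19.5 CPM in WT against 31.7 and 53.6 CPM in Hnrnpf bKO. Cd93, whose protein the sort excluded, had 8.43 and 11.7 CPM in WT against 16.6 and 19.6 CPM in Hnrnpf bKO. In bulk RNA, more cells of a type and more RNA per cell cannot be told apart.

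The level per length, in FPKM, spread these 10 genes over more than 3 orders of magnitude in FOB cells. Fth1 stood at the top with 203.51 to 214.01 FPKM, and Ftl1 followed with 155.74 to 171.32 FPKM. By mean FPKM they were above 98.9% and 98.5% of the genes tested. Ireb2, with 11.18 to 12.43 FPKM, led the regulators. Tfrc and Aco1 came next with 7.47 to 10.01 and 5.76 to 7.55 FPKM, and their ranges overlapped, so their order was not resolved. Slc11a2 (3.87 to 4.61 FPKM) and Ncoa4 (2.61 to 3.03 FPKM) did not overlap with each other or with their neighbours. Their mean counts were nearly the same, 469 and 464, so the gap between them came from exonic sizes of 6354 and 9365 bases. The order by FPKM depends on these sizes for every gene, and ranges that do not overlap leave out that dependence. Slc22a17 ranged from 0.70 to 1.96 FPKM and Lcn2 from 0.40 to 2.26 FPKM, and these ranges overlapped as well. Slc40a1 was the lowest at 0.10 to 0.13 FPKM, above 1.11% of the genes tested. A filter on low counts removed no member, but Slc40a1 and Lcn2 rest on few reads.

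**Figure D2:**
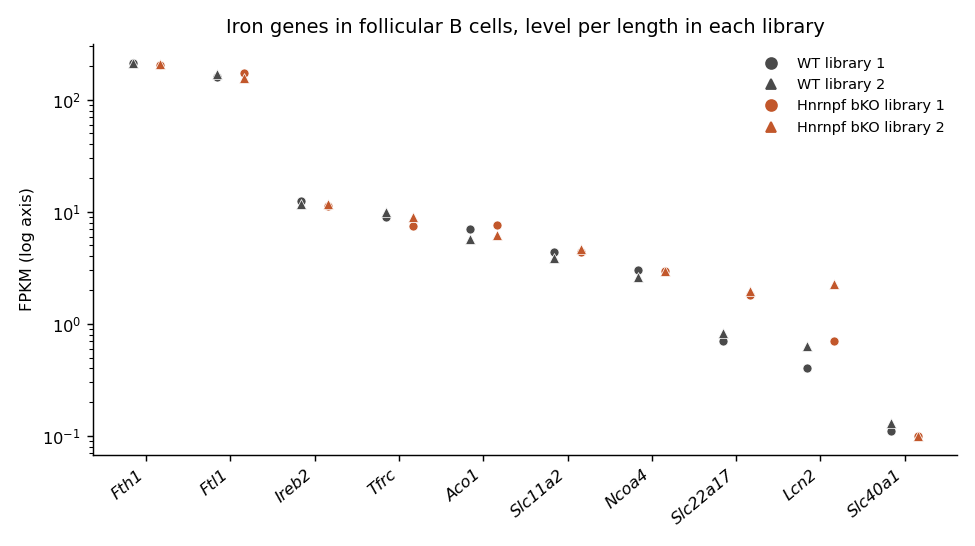
FPKM of the 10 iron genes in each of the 4 libraries on a log axis, ordered by mean level, with circles and triangles for libraries 1 and 2 of each genotype. The ferritin chains Fth1 and Ftl1 sit above 155 FPKM in every library, and the Slc22a17 points of Hnrnpf bKO, at 1.82 and 1.96 FPKM, lie above those of WT at 0.70 and 0.82 FPKM.

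Slc22a17 had 52 and 70 counts in WT against 129 and 160 in Hnrnpf bKO. In CPM these were 3.18 and 3.70 CPM in WT against 8.22 and 8.85 CPM in Hnrnpf bKO. Both Hnrnpf bKO libraries were above both WT libraries. The fitted level in Hnrnpf bKO was 2.49 times that in WT (log2 fold change 1.32 ± 0.21, SE). These values chose the gene and are a description, with no test. Of the genes tested, 4.15% were higher in Hnrnpf bKO at the threshold of 0.05 on the adjusted p, and 0.644% were also higher by at least 2-fold.

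Neither neighbour of Slc22a17 overlaps it. Efs, 3402 bases away, had no count in any library. Pabpn1, a poly(A)-binding protein gene 8134 bases away on the other strand, had 2127 and 2544 counts in WT against 2269 and 2843 in Hnrnpf bKO, which gave a difference of 0.20 ± 0.06 (SE) on the log2 scale that did not pass (edgeR adjusted p = 0.0615).

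Slc22a17 belongs to the SLC22 family of organic ion transporters. The count table holds 26 genes of this family, of which 16 had no count in any library and 5 were left by the filter. The other 4 were Slc22a5, the carnitine transporter, Slc22a15, Slc22a23 and Slc22a13b. Slc22a5 had the highest level of the 5, with 9.93 and 8.18 FPKM in WT against 8.15 and 8.40 FPKM in Hnrnpf bKO. The log2 fold changes of these 4 ran from -0.29 to -0.08. Their standard errors were 0.11 for Slc22a5, 0.38 for Slc22a15, 0.33 for Slc22a23 and 0.41 for Slc22a13b. Of the 4, 0 passed the edgeR test or had an unadjusted p under 0.05, and DESeq2 and the exact test also called 0. Over all genes tested, edgeR called 4.15% higher and 2.83% lower, and 2862 of 14123 had an unadjusted p under 0.05. A count of 0 among 4 genes therefore says little about this family.

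The gene whose profile over the 4 libraries was nearest to that of Slc22a17 was Gm22018, by Euclidean distance of log2 CPM centred per gene. Its levels were 0.244 and 0.317 CPM in WT against 0.701 and 0.775 CPM in Hnrnpf bKO, which is a mean of 8.75 counts. The next were Dip2c, Aqp3, Gm44659 and Tmem176b. Aqp3, a water and glycerol channel, had 1.28 and 1.69 CPM in WT against 3.69 and 3.93 CPM in Hnrnpf bKO. Tmem176b had 2.51 and 2.91 CPM in WT against 5.80 and 6.31 CPM in Hnrnpf bKO, and 2 events were listed for it in the splicing table. With 4 libraries, 2 per genotype, such a likeness mostly states that a gene was higher in Hnrnpf bKO by a like amount.

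None of the 9 iron genes other than Slc22a17 passed the edgeR quasi-likelihood test at an adjusted p of at most 0.05. The background was 4.15% of the genes tested called higher and 2.83% called lower in Hnrnpf bKO. At an unadjusted p under 0.05 there was 1 of the 9, Lcn2, and 2862 of the 14123 genes tested. DESeq2 gave Slc40a1 no adjusted p and called 0 of the other 8. Limma on log2 FPKM called 0 of the 8 above its FPKM minimum, which Slc40a1 missed, and edgeR's exact test called 1, Lcn2. Over all genes DESeq2 called 620 and the exact test 1275. Limma called only 45 with log2(FPKM + 0.1) and 41 with log2(FPKM + 1), so its 0 says little about these genes. The median log2 fold change of the 9 was 0.00, as it was over all genes tested. The 2 genotypes did not overlap in CPM for 5 of the 9, against 50.4% of all genes tested. For 2 samples against 2, the smallest two-sided p of an exact permutation test is 0.333.

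Lcn2 encodes the ligand of the receptor made from Slc22a17. It had 17 and 31 counts in WT against 29 and 107 counts in Hnrnpf bKO, or 1.04 and 1.64 CPM against 1.85 and 5.92 CPM. The second Hnrnpf bKO library was the highest by far, while the first stood close to the higher WT library. The log2 fold change was 1.55 ± 0.48 (SE; 95% interval 0.52 to 2.58), with an edgeR adjusted p of 0.0732. Without the second Hnrnpf bKO library it was 0.46, with an adjusted p of 0.727. Without the first it was 2.14, with an adjusted p of 0.00185, and without the second WT library it was 1.92, with an adjusted p of 0.0249.

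Several neutrophil genes were highest in the same library as Lcn2. The 13 neutrophil genes listed as markers were chosen with earlier results of these data known, so counts among them are a description. Of the 13, 8 passed the filter on low counts. By the edgeR test 4 of these were higher in Hnrnpf bKO, against 4.15% of all genes tested. The second Hnrnpf bKO library, the library with the most Lcn2, was the highest for 9 of the 13. The 9 include Mmp9, with a log2 fold change of 0.16, and Elane, Mpo and Prtn3. Mmp8, Retnlg and Csf3r were highest in a WT library, and Cd177 in the first Hnrnpf bKO library. S100a9, a calcium-binding protein abundant in neutrophils, had 3.18 and 4.76 CPM in WT against 7.58 and 12.3 CPM in Hnrnpf bKO. The granule gene Ngp had 47 and 73 counts in WT against 93 and 229 in Hnrnpf bKO. The receptor gene Csf3r had 30 and 41 counts in WT against 33 and 34 in Hnrnpf bKO. The primary granule genes Elane, Mpo and Prtn3 had at most 10 counts in any library. Per 100 counts of the 13 genes together, Lcn2 had 6.42 and 8.40 counts in WT against 5.82 and 11.1 in Hnrnpf bKO, so the groups overlapped on this scale. The part of these genes in the Lcn2 result was not tested.

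**Figure D3:**
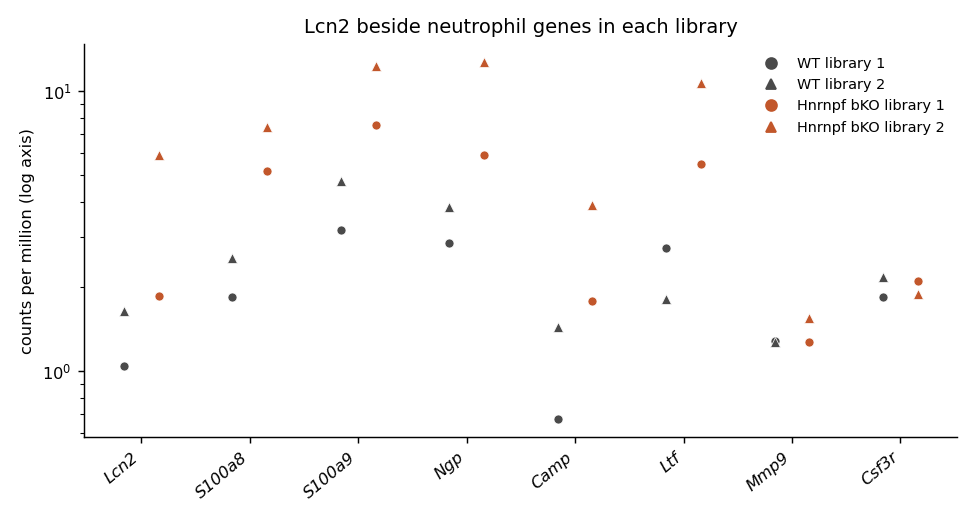
CPM of Lcn2 and of the 7 neutrophil genes with a mean above 20 counts, in each library on a log axis, with circles and triangles for libraries 1 and 2 of each genotype. The second Hnrnpf bKO library, the orange triangle, is the highest for Lcn2 at 5.92 CPM and for S100a8, S100a9, Ngp, Camp and Ltf.

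Among the importers, Tfrc, the transferrin receptor, had 911 and 1171 counts in WT against 725 and 1001 in Hnrnpf bKO. On the CPM scale these were 55.7 and 61.9 in WT against 46.2 and 55.4 in Hnrnpf bKO, so the groups did not overlap, but the second Hnrnpf bKO library came within 1 CPM of the lower WT library. The log2 fold change was -0.20 ± 0.09 (SE; 95% interval -0.40 to 0.01; edgeR adjusted p = 0.262). Slc11a2, the endosomal iron carrier, had 27.6 and 24.6 CPM in WT against 27.5 and 29.3 CPM in Hnrnpf bKO, and the groups overlapped. Its log2 fold change was 0.14 ± 0.10 (SE; 95% interval -0.08 to 0.35; edgeR adjusted p = 0.485). The gene Gm5475, which overlaps Slc11a2, had 1 count in all.

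The exporter ferroportin was close to the lower limit of the assay. Slc40a1 had 16 and 22 counts in WT against 14 and 16 counts in Hnrnpf bKO. The exact Poisson 95% intervals of these counts, which cover counting error only, overlapped, from 9.15 to 33.3 in WT and from 7.65 to 26.0 in Hnrnpf bKO. The log2 fold change of -0.26 ± 0.44 (SE) had a 95% interval of -1.21 to 0.69 (edgeR adjusted p = 0.795), so at this depth neither a fall nor a rise within that interval was resolved.

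Ferritin was the best measured of these groups. Fth1, the heavy chain with the ferroxidase activity, had 12146 and 13991 counts in WT against 11083 and 13066 in Hnrnpf bKO, or 742.0 and 740.0 CPM against 706.0 and 723.0 CPM. Both Hnrnpf bKO libraries were below both WT libraries by a small margin, and the log2 fold change was -0.04 ± 0.05 (SE; 95% interval -0.14 to 0.06; edgeR adjusted p = 0.674). Ftl1, the light chain, had 216.0 and 226.0 CPM in WT against 230.0 and 209.0 CPM in Hnrnpf bKO, which placed the WT libraries between those of Hnrnpf bKO. Its log2 fold change was 0.00 ± 0.06 (SE; 95% interval -0.12 to 0.12; edgeR adjusted p = 0.998). The ratio of heavy to light chain, in FPKM, was 1.33 and 1.27 in WT against 1.19 and 1.34 in Hnrnpf bKO, and the groups overlapped. In counts it was 3.44 and 3.27 in WT against 3.07 and 3.46 in Hnrnpf bKO. The FPKM ratio rests on exonic sizes of 3469 bases for Fth1 and 1340 bases for Ftl1. The proportion of the 2 chains is therefore not settled by either ratio.

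Reads of ferritin can also match gene copies. The count table holds 8 copies of Ftl1 and 1 copy of Fth1 with an identity of at least 90% over at least 200 bases of transcript. The Ftl1 copies took 2.20% to 2.97% of the summed counts, nearly all of them from Ftl1-ps1, which is 99.6% identical to Ftl1. These shares cover only reads that were counted. Reads that match a gene and its copy equally well may be in neither count, and their number is not known here. The Fth1 copy, Gm6977, had 1 count in all. With the copies added, the log2 fold change of Ftl1 was -0.01. Gm10252, which overlaps Ftl1, had 22 to 43 counts per library, and Gm22133 had none.

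Ncoa4, the ferritin cargo receptor, had 28.4 and 24.4 CPM in WT against 27.7 and 27.4 CPM in Hnrnpf bKO. The groups overlapped, and the log2 fold change was 0.08 ± 0.10 (SE; 95% interval -0.14 to 0.30; edgeR adjusted p = 0.726). A processed pseudogene, listed as Ncoa4-ps in the count table and Gm6768 in GENCODE M21, is 99.9% identical to Ncoa4 over 1878 bases. It held 112 to 161 counts per library, which was 19.4% to 25.8% of the sum of both. The level of Ncoa4 therefore depends on how reads that match both were handled, and this share does not bound reads left uncounted. The pseudogene's own log2 fold change was 0.03 ± 0.18 (SE; edgeR adjusted p = 0.952).

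The IRPs are the sensors. Ireb2 (IRP2) had 118.0 and 110.0 CPM in WT against 106.0 and 110.0 CPM in Hnrnpf bKO, and the second library of each genotype had nearly the same level. Its log2 fold change was -0.06 ± 0.06 (SE; 95% interval -0.20 to 0.07; edgeR adjusted p = 0.615). Aco1 (IRP1, which is cytosolic aconitase when it holds an iron-sulfur cluster) had 31.4 and 25.9 CPM in WT against 34 and 28 CPM in Hnrnpf bKO. The libraries of each genotype differed from each other by more than the genotypes did, and the log2 fold change was 0.12 ± 0.12 (SE; 95% interval -0.13 to 0.38; edgeR adjusted p = 0.608). Across the 4 genes with a match to the searched element, Fth1, Ftl1, Slc40a1 and Tfrc, the log2 fold changes ran from -0.26 to 0.00. Gene counts show the level of an mRNA and not its translation, which is what an element before the coding sequence acts on.

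**Figure D4:**
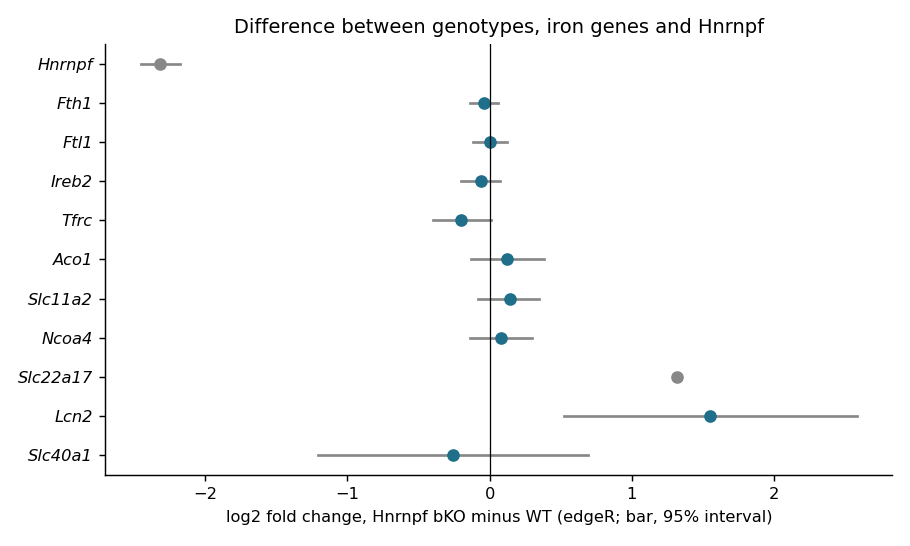
Log2 fold change of Hnrnpf and the 10 iron genes between Hnrnpf bKO and WT by edgeR, ordered from the highest mean FPKM down, with bars for the unadjusted 95% intervals. Slc22a17, at 1.32, is a grey point without an interval because its difference chose it, and Lcn2 at 1.55 is the only other iron gene whose interval lies off 0.

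Beyond these genes, 79 genes of iron and heme handling in 6 lists were examined, of which 61 were left by the filter and 9 had no count in any library. By the edgeR test 1 of the 61 was higher in Hnrnpf bKO and 0 were lower, against 4.15% and 2.83% of all genes tested. At an unadjusted p under 0.05 there were 8 of 61, against 2862 of the 14123 genes tested. Their median log2 fold change was 0.03. The gene that passed was Ltf, which encodes lactoferrin, an iron-binding protein of neutrophil granules that also stands in the neutrophil list. Ltf had 45 and 34 counts in WT against 86 and 193 in Hnrnpf bKO (log2 fold change 1.86 ± 0.33, SE; edgeR adjusted p = 0.00454), and without the second Hnrnpf bKO library it had a log2 fold change of 1.28 with an adjusted p of 0.0422. It did not pass with limma on log2(FPKM + 0.1) (adjusted p = 0.155).

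Of 22 genes of uptake and export 10 were left by the filter, with a median log2 fold change of 0.12, and apart from Ltf none passed. The highest per length were Snx3, which sorts the transferrin receptor in endosomes, with 64.02 and 68.57 FPKM in WT against 67.35 and 68.72 FPKM in Hnrnpf bKO, and Exoc6, with 13.37 and 11.88 FPKM in WT against 11.75 and 10.91 FPKM in Hnrnpf bKO. The hepcidin gene Hamp had at most 2 counts in a library. Of 7 genes of storage, sensing and iron chaperones 4 were left, all with log2 fold changes between -0.06 and 0.05. They include Pcbp1 and Pcbp2, which hand iron to ferritin, at 140.52 to 147.45 and 54.60 to 57.26 FPKM, and Fbxl5, which marks IRP2 for degradation.

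All 20 genes of mitochondrial iron and iron-sulfur assembly and all 9 genes of cytosolic iron-sulfur assembly were left by the filter, and the quasi-likelihood test of edgeR called 0 of either list, as did DESeq2 and limma. At an unadjusted p under 0.05 there were 3 of the 20 and 1 of the 9, against 2862 of the 14123 genes tested. The 1 of the 9 was Ciao3, which the exact test called. Slc25a37 (mitoferrin-1), the mitochondrial iron importer, had the highest level of the mitochondrial list, with 62.44 and 52.40 FPKM in WT against 62.72 and 70.01 FPKM in Hnrnpf bKO (log2 fold change 0.22 ± 0.08, SE; edgeR adjusted p = 0.116). Hspa9, the chaperone of cluster transfer, had 41.78 and 42.23 FPKM in WT against 41.65 and 39.90 FPKM in Hnrnpf bKO. Nubp1 and Nubp2, the scaffold of cytosolic assembly, had log2 fold changes of 0.09 and 0.08.

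Of 9 heme synthesis genes all were left by the filter and 0 passed with edgeR, DESeq2 or limma. Limma did not test Alas2, whose mean of 0.27 FPKM was under its minimum of 0.5. By edgeR an unadjusted p under 0.05 was found for 3 of the 9 genes, against 2862 of the 14123 genes tested. Ppox, the last enzyme but one of the pathway, had 17.14 and 19.48 FPKM in WT against 16.07 and 14.99 FPKM in Hnrnpf bKO (log2 fold change -0.23 ± 0.07, SE; edgeR adjusted p = 0.093). Alad had 14.05 to 15.38 FPKM over all libraries. Of 12 genes of heme breakdown and transport 9 were left by the filter and 0 passed with the same tools or at an unadjusted p under 0.05. Among the 9, limma did not test Slc46a1 and Lrp1, with means of 0.35 and 0.0575 FPKM. Blvrb and Hmox2, the constitutive heme oxygenase, had log2 fold changes of -0.16 and -0.02.

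Of the 61 genes left by the filter 4 had a listed splicing event, 1 each, against 8.22% of all genes left by the filter. Fdxr, which feeds electrons to cluster assembly, Herc2 and the heme synthesis gene Uros each had a skipped exon, and Ppox had a retained intron. None of these 4 genes passed the test of gene counts, and their log2 fold changes ran from -0.23 to -0.01.

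**Figure D5:**
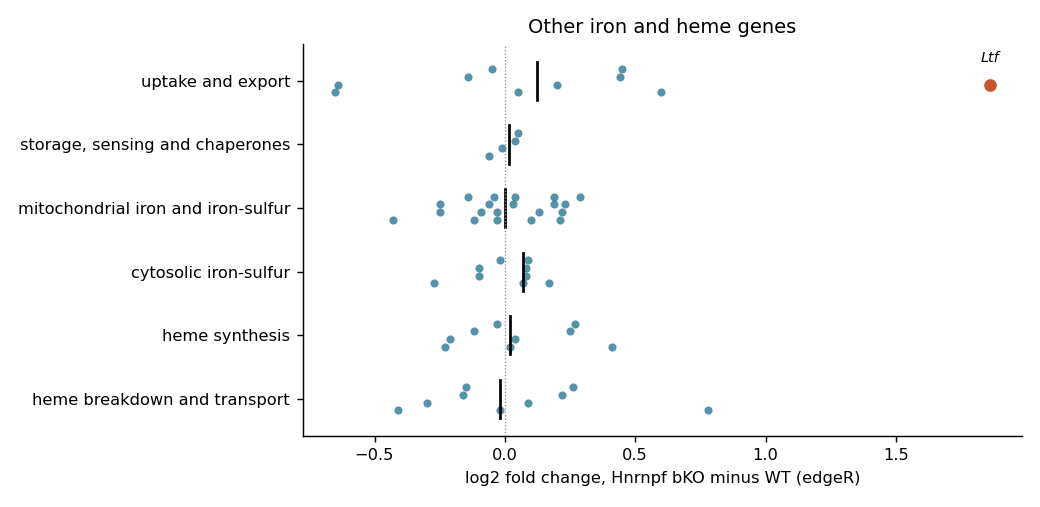
Log2 fold change of the 61 other iron and heme genes left by the filter, between Hnrnpf bKO and WT, with 1 point per gene and a black bar at the median of each of the 6 lists. Medians lie between -0.02 and 0.12, and the orange point, Ltf at 1.86, is the only gene that passed the edgeR test.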

How the data were processed

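The authors trimmed the reads with cutadapt 1.9.1, aligned them to GRCm38 with HISAT2 2.0.1 and counted them per gene with HTSeq 0.6.1. The deposited counts are whole numbers without normalization. The deposited FPKM columns divide each count by the exonic size of its gene and by the library total, and were made by the authors. The strand setting and annotation release of the counting are not given in the sources used here. The authors made the splicing table with rMATS turbo. Its FDR and inclusion level difference are the authors' own comparison and were not used, and its rows were counted by gene and event type.

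Counts were compared with edgeR 4.0.16 in R 4.3.3, by its quasi-likelihood F test after filterByExpr and TMM, and p-values of 14123 genes were adjusted by Benjamini-Hochberg. A gene passed at an adjusted p of at most 0.05. Standard errors are the log2 fold change divided by the root of F. The median standard error was 0.0847 among genes averaging 100 counts or more and 0.398 among the rest. Alternatives were RLE size factors, DESeq2 1.42.0, edgeR's exact test, other count filters, limma 3.58.1 on log2(FPKM + 0.1) and log2(FPKM + 1) where the FPKM averaged 0.5 or more, a fold change of at least 2, a replicate block, each library left out, and gene copies added. Exons, elements and transcripts are from GENCODE M21 on GRCm38, and copies were searched with blastn 2.17.0. Members and lists (6 iron lists, and markers of follicular B cells, neutrophils, erythroid cells, red pulp macrophages, T cells and transitional B cells) were chosen with earlier results of these data known. Named were the 10 genes, Hnrnpf, SLC22 genes left by the filter, neighbours, overlapping genes and copies, the 5 nearest profiles, and from each iron list the genes that passed, those with a listed event and the 2 with the highest FPKM. The marker genes beside Lcn2, and Cd93, Car2, Fbxl5, Hamp, Ciao3 and Slc48a1, were named after their values were seen. Some items under this rule are not reported here.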

Additional observations from a re-analysis of the deposited data

How the results depend on the processing

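The count of the 9 iron genes that passed, 0 by the edgeR quasi-likelihood test, became 1 (Lcn2) with edgeR's exact test (log2 fold change 1.55, adjusted p = 0.0282) and with no filter on low counts (1.55, adjusted p = 4.23e-05), and ranged from 0 to 1 with a library left out. Lcn2 then had a log2 fold change of 0.46 to 2.14. The count of the 61 other iron genes, 1, became 2 with the exact test, 4 with no filter, 0 with limma at either pseudocount, and 1 to 3 with a library left out. Ciao3, Slc25a37, Ppox and Slc48a1 are the genes that passed in at least 1 of these settings and not in the main test. All genes that passed numbered 985, and 1470 with no filter, 1275 with the exact test, 1042 with at least 10 counts in every library, 989 with RLE size factors, 620 with DESeq2, 45 and 41 with limma on log2(FPKM + 0.1) and log2(FPKM + 1), 127 at a fold change of at least 2, and 602 to 925 with a library left out. With the replicate block 612 genes passed, and the block changed no call of an iron gene. Same-numbered libraries did not deviate together (r = -0.0954 across 9875 genes, which are not independent), so the numbers were not taken as pairs. The log2 fold change of Slc22a17 was 0.72 with limma on log2(FPKM + 1), where the pseudocount is close to its level, and 1.21 to 1.43 in the other settings. Values near 0 changed sign. Ftl1 had -0.00 with RLE size factors, DESeq2, no filter and the replicate block, -0.01 with both limma fits and with copies added, and -0.06 to 0.06 with a library left out. Aco1 had -0.02 to 0.27 and Ncoa4 -0.04 to 0.19 with a library left out. In these fits the lone library is assumed to vary like the others. The share of genes with a listed splicing event was 10.6% among genes averaging 100 counts or more. Depth limits Slc40a1, which had at most 22 counts in a library and a standard error of 0.44. The causes of these changes were not tested.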
